A study of Mus musculus with 12 samples.

Results

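The response of RAW 264.7 cells to LPS alone was described by comparing the 3 libraries whose label gives LPS as the agent with the 3 libraries labelled Control. These are 6 of the 12 libraries of the series, and they were chosen by those labels and not by any measured value. RAW 264.7 is an established, virus-transformed mouse macrophage line, so the replicates are samples of 1 line and not of different animals. Per the labels' protocols, a vehicle stood in for PSTO, an agent given to the other 6 libraries at 20 uM, during the 30 minutes before stimulation. LPS was then added at 500 ng/mL to the LPS group and not to the control group, and cells were harvested after 6 h. All libraries are of total RNA from cultured cells without any genetic change named in the labels. The labels do not say that replicates were separate cultures, so the p-values measure the spread between these samples.

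LPS, a glycolipid of the outer membrane of Gram-negative bacteria, is passed by the proteins CD14 and MD-2 to the receptor TLR4 on macrophages. TLR4 signals from the plasma membrane through MYD88 to NF-kB and MAP kinases, and from endosomes through TRIF to IRF3 and type I interferon. Beyond its secreted products, an activated macrophage is known to rebuild its surface receptors and its use of arginine, glucose and lipids, and dividing macrophages leave the cell cycle.

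Totals ran from 20652947 to 28625784 reads per library. The 15 macrophage markers were all detected, with a summed level of 13100 to 14000 CPM (TMM-scaled counts per 1000000 reads) in control and 13600 to 13800 CPM with LPS. Single markers changed with LPS by -1.664 to 2.415 on the log2 scale, so the similar sums do not mean that each was stable. Epithelial and fibroblast markers summed to at most 0.479 CPM, with Epcam, Cdh1, Col1a1, Col1a2 and Col3a1 at 0 reads in all 6 libraries. B cell markers, with Ebf1 at 0, summed to 44.0 to 58.9 CPM over both groups, endothelial markers to 4.39 to 9.38 CPM and neutrophil markers to 1.55 to 3.51 CPM. For T cells (Cd3e, Cd3d, Cd3g and Trac at 0) the sum was 1.16 to 2.53 CPM in control and 6.18 to 7.77 CPM with LPS, and their part in any result was not tested. The first principal component of log2 CPM held 83.6% of the variance of the 6 libraries and separated the groups. Spearman correlations between libraries of a group were 0.991 to 0.993 across genes, and no library matched another within sampling noise (chi-square per degree of freedom from 5.16 to 9.10).

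Most measured genes differed between the groups. At an edgeR quasi-likelihood adjusted p under 0.05, the call used throughout, 62.9% of 14505 tested genes differed, 32.8% higher and 30.1% lower with LPS. The 3 LPS values lay outside the range of the 3 control values for 67.4% of the genes. Small changes dominated by number, since 2842 of the called genes changed by less than 0.5 on the log2 scale. Large changes were mostly rises, with 807 genes at least 8-fold higher against 201 at least 8-fold lower, and 357 against 33 at 32-fold. In 61 genes that reached a mean of at least 1 CPM with LPS no read was found in control, and the reverse occurred in 0 genes. By another measure, which takes in some of these 61, 96 genes went from under 0.5 CPM in every control library to at least 5 CPM in every LPS library, against 3 in the reverse direction.

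**Figure D1:**
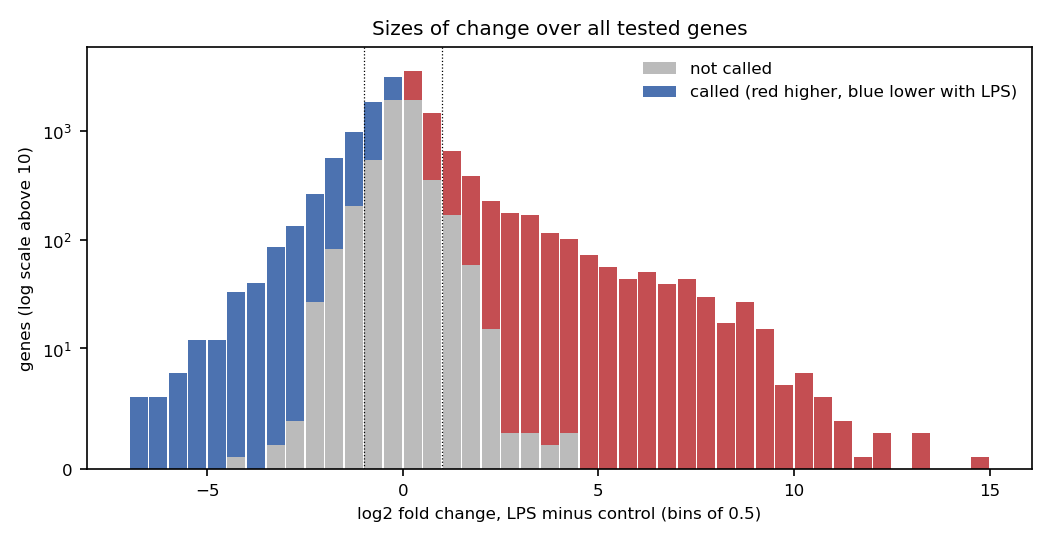
Distribution of log2 fold changes (LPS minus control, x axis, bins of 0.5) over all 14505 tested genes, with the number of genes on the y axis (linear up to 10, log above). Grey bars are genes that were not called, red and blue bars stacked on them are genes called higher and lower, and dotted lines mark 2-fold, beyond which 2014 genes were higher and 1848 lower.

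The share of all reads held by these genes moved with them. Genes at least 2-fold higher with LPS held 8.93, 9.01 and 9.07% of the reads in the 3 control libraries and 33.2, 33.4 and 33.0% in the 3 LPS libraries. Those at least 8-fold higher went from 0.9 ± 0.03% to 15.6 ± 0.15% (SD, n = 3), and those at least 2-fold lower from 7.19 ± 0.09% to 1.68 ± 0.02%. Genes in neither class held 83.7 ± 0.12% of the reads in control and 65.1 ± 0.15% with LPS. The balance of rises and falls depended on the scaling. TMM factors were 1.19 to 1.22 in control and 0.832 to 0.842 with LPS, and 52.1% of the calls were then rises. With upper-quartile factors the median log2 change of all genes shifted by -0.15 and 41.8% of the calls were rises, while library totals with no factor shifted it by -0.53 and gave 21.5% rises. Every fold change below is on the TMM scale, on which the median of all tested genes was 0.008, so a rise smaller than 0.53 on the log2 scale is a fall against library totals alone. RNA amounts per cell were not measured.

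Short sequence motifs of inducible and cell cycle promoters were counted in windows of 250 bases before to 50 after the gene start, from RefSeq (build GRCm38.p6, which is not the build of the deposited counts). A window was found for 9613 of the tested genes, by symbol, taking the first window listed for each gene, and both strands were searched. The AP-1 string TGANTCA was in 16.1% of the windows of genes at least 8-fold higher, 9.86% of those at least 2-fold higher, 5.53% of those at least 2-fold lower and 5.38% of all tested genes. For the interferon-stimulated response element string TTCNNTTTC the shares were 23.4, 15, 5.83 and 7.61% in the same order, and for the NF-kB string GGNNTTTCC they were 12.2, 9.3, 5.15 and 6.27%. Either of the E2F strings TTTGGCGC and TTTCCCGC occurred in 1.59, 1.37, 6.21 and 3.17% of the windows. The CCAAT string was in 33.6, 34.8, 45.4 and 39.1%, and the cyclic AMP response string TGACGTCA in 1.59, 2.67, 2.5 and 3.44%. The cell cycle homology string TTTGAA was in 17, 14, 15.1 and 12.3%. Over all 27025 genes of the promoter table the shares were 7.93% for AP-1, 8.57% for the interferon element, 5.72% for NF-kB, 1.63% for E2F, 37.9% for CCAAT, 1.88% for the cyclic AMP element and 18.1% for TTTGAA. A match is a string of letters and not evidence of binding.

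The windows of 5 genes show such strings. Serpinb2 and Unc80 are among the 3 largest rises with a window, leaving out the genes of a chromosome that was set aside. Lipg and Alpk2, which rose more than Rdh8, are in the ranking of rises but had no window or lie on that chromosome. The ranking counts genes outside the cytokine, chemokine and interferon lists that had a symbol other than a gene model. It also requires groups that did not overlap and a mean of at least 5 CPM in the higher group. Ccrl2 has the largest rise, and E2f7 and Cdc6 the largest falls, among the named genes considered whose windows hold an NF-kB or an E2F string. Ccrl2, E2f7 and Cdc6 were thus picked for the string, and the same chromosome was left out. Windows read 5′ to 3′ on the gene's strand, and capitals mark every match to any of these strings. In Serpinb2 (chr1:107511173-107511472, plus strand) the AP-1 string begins 94 bases before the start and TTTGAA occurs in 2 places.
Serpinb2: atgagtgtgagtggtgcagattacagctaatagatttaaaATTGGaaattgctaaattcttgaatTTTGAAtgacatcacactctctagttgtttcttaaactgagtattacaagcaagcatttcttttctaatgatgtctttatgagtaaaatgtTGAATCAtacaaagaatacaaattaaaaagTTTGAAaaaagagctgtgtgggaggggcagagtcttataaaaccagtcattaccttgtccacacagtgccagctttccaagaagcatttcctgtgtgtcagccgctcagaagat
In Unc80 (chr1:66467684-66467983, plus strand) the interferon element string begins 128 bases before the start.
Unc80: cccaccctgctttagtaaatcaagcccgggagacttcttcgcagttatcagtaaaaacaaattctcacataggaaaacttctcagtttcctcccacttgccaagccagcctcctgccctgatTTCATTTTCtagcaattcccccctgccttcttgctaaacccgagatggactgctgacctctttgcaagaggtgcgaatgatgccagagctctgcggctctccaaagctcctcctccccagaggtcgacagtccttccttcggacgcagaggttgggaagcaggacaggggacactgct
In Ccrl2 (chr9:111057469-111057768, minus strand) the NF-kB string begins 68 bases before the start.
Ccrl2: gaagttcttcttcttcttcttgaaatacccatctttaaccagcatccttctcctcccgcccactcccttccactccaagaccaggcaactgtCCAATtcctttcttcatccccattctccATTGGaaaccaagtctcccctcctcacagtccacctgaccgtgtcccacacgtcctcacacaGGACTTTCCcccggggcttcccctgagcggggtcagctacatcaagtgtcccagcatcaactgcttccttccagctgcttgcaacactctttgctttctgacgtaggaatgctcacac
In E2f7 (chr10:110745189-110745488, plus strand) the E2F string, on the opposite strand, begins 198 bases before the start, and CCAAT follows in 2 places.
E2f7: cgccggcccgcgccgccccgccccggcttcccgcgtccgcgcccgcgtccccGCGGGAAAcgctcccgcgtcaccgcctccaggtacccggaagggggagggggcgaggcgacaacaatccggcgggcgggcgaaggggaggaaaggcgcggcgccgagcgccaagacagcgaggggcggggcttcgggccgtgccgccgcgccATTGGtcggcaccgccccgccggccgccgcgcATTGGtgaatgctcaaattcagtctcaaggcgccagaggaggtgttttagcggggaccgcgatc
In Cdc6 (chr11:98907901-98908200, plus strand) the E2F string, also on the opposite strand, begins 138 bases before the start.
Cdc6: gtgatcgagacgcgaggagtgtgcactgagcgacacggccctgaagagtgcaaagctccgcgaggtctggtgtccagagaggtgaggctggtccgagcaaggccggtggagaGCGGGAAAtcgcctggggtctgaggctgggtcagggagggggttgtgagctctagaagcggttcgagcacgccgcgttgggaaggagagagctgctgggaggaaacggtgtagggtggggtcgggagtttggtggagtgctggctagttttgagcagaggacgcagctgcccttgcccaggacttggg
The windows of Rdh8, Ung, Hpgd and Cxcr4, which are also among the 3 largest rises and the 3 largest falls with a window on those terms, hold none of these strings.

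The largest rises outside the cytokine, chemokine and interferon-stimulated genes, among genes with a mean of at least 5 CPM in the higher group, were switches from nothing or nearly nothing. Lipg, which encodes endothelial lipase, had 0 reads in all 3 control libraries and 16.6, 28 and 21.5 CPM with LPS, at least 633-fold higher against a floor of 3 reads over the control group. Cd69, an activation antigen of leukocytes, had 0 reads in control and 10.8, 9.9 and 10.6 CPM with LPS, at least 305-fold higher against the same floor. On that basis Unc80 (a subunit of a sodium leak channel complex) was at least 425-fold higher, Alpk2 (an alpha-kinase) at least 343-fold, Rdh8 (a retinol dehydrogenase) at least 311-fold, Serpina3f (a serine protease inhibitor of a multigene family whose reads the counting could split) at least 230-fold, Acpp (an acid phosphatase) at least 223-fold and Lad1 (ladinin, a basement membrane protein of epithelia) at least 189-fold. Ch25h, the cholesterol 25-hydroxylase gene, was at least 157-fold higher at 5.65, 5.2 and 5.32 CPM. The annotated exons of Ch25h overlap those of Gm26902 on the opposite strand, which also rose (log2 change 10.38), so reads may be shared. Hdc, which makes histamine from histidine, went from 0.312, 0.279 and 0.132 CPM in control to 171, 177 and 172 CPM with LPS, a log2 change of 9.46 (SE 0.20). Its lowest LPS library lay far above its highest control library. The Notch ligand gene Dll1 had 1 read over the control libraries, and the ratio of reads was 810 (95% counting interval 145 to 32000), reaching 9.8, 9.12 and 8.78 CPM. Il1bos, transcribed from the strand opposite Il1b, also rose from 0 reads (at least 294-fold), but the strand setting of the counting is not stated and its reads cannot be told apart from those of Il1b. Floors and intervals cover counting error only.

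Among the largest falls with the same minimum level were surface proteins, a DNA repair enzyme and the main enzyme of prostaglandin breakdown. Hpgd, which inactivates prostaglandin E2, had 14.9, 15.6 and 17 CPM in control and 0.209, 0.539 and 0.639 CPM with LPS, a log2 fold change of -5.13 (SE 0.38, adjusted p = 5.23e-10). Nt5e, the ecto-nucleotidase CD73 that makes adenosine, had 11.9, 12.6 and 12.2 CPM in control and 0.502, 0.441 and 0.532 CPM with LPS, a log2 fold change of -4.62 (SE 0.24, adjusted p = 3.07e-12). In these genes every LPS library lay below every control library. Cytip, a regulator of leukocyte adhesion, went from 84 ± 2.49 to 3.68 ± 0.898 CPM, and the sialyltransferase gene St6gal1 went from 40.2 ± 4.35 to 1.96 ± 0.338 CPM. Diacylglycerol kinase gamma (Dgkg) changed by -4.49 on the log2 scale and the secretory vesicle GTPase gene Rab27a by -4.04. Fam13c (-4.56), Ankle1 (-4.39), Prtg (-4.21), Marveld1 (-4.08) and Klhl6 (-4.01) completed the 15 largest falls on these terms together with Ung, S1pr1, Cxcr4 and Gpr183, which are described with their groups.

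Transcription factor genes changed in both directions. Of 255 tested factor and chromatin genes, 108 (42.4%) were called higher and 105 (41.2%) lower, against background shares of 32.8 and 30.1%. Of these, 62 and 49 changed by at least 2-fold, and the median log2 change of the 255 genes was -0.03. The families differed in balance. All 8 genes of NF-kB subunits and nuclear IkB proteins were called higher, with a median of 2.06. Of 14 IRF and STAT genes 11 were higher and 2 lower, with a median of 2.15. Of 18 E2F, RB and MuvB genes, the regulators of cell cycle transcription, 2 were higher and 13 lower, with a median of -0.83.

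Within the NF-kB group the sizes were unequal. Nfkbiz, a nuclear IkB protein that directs NF-kB to secondary response genes, had 11.6, 11.6 and 8.89 CPM in control and 545, 543 and 542 CPM with LPS, a log2 fold change of 5.67 (SE 0.10, adjusted p = 1.68e-19). Nfkb1, the precursor of the p50 subunit, had 129.5, 122 and 128 CPM in control and 1512, 1470 and 1439 CPM with LPS, a log2 change of 3.54 (SE 0.05). Rela, the transactivating subunit, had 63.3, 63 and 63.5 CPM in control and 82.8, 74.5 and 84.7 CPM with LPS, a log2 fold change of 0.35 (SE 0.06, adjusted p = 4.22e-05). The groups did not overlap in any of the 3 genes, but the rise of Rela was small and turned into a fall against library totals. Between them lay Nfkb2 (2.83), Rel (2.16), Bcl3 (1.96), Nfkbid (1.82) and Relb (1.60). Among interferon regulatory factors, Irf7 went from 26.9 ± 0.0497 to 1251 ± 22.3 CPM and Irf1 from 9.6 ± 0.882 to 188 ± 13.3 CPM, while Irf3, which acts downstream of TRIF, was at 37.9 ± 3.59 and 32.6 ± 4.61 CPM and just missed the call (adjusted p = 0.054), with a fall that 9 of 15 alternatives called. Irf4, better known from lymphocytes and alternative activation, had 1.72, 1.32 and 1.82 CPM in control and 28.2, 26.2 and 23.9 CPM with LPS, a log2 change of 4.0 (SE 0.24). Stat2, a factor of interferon signalling, went from 23.2 ± 3.34 to 461 ± 13.5 CPM, and Stat6, which relays interleukin-4, fell by 0.31 on the log2 scale.

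The AP-1 and ATF group was split at 6 h. Fos and Jun were lower, by log2 changes of -0.27 (SE 0.07) and -0.48 (SE 0.10), and so was Fosl2 (log2 change -0.90, SE 0.06). Jdp2, a repressing partner of JUN, had 31.5, 35.6 and 34.1 CPM in control and 744, 719 and 742 CPM with LPS, a log2 fold change of 4.45 (SE 0.06, adjusted p = 2e-20). Batf2 went from 1.69 ± 0.508 to 60.9 ± 0.941 CPM, Atf3 from 42.2 ± 3.6 to 273 ± 14.5 CPM and Fosl1 from 27.9 ± 3.11 to 160.4 ± 12.8 CPM. Of the 18 tested genes of this group 9 (50%) were called higher and 5 (27.8%) lower, against 32.8 and 30.1% of all tested genes. Among large MAF genes, Maf had 1.62, 0.997 and 1.85 CPM in control and 75.9, 88.5 and 74.5 CPM with LPS, a log2 change of 5.71 (SE 0.22), and its groups did not overlap.

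**Figure D2:**
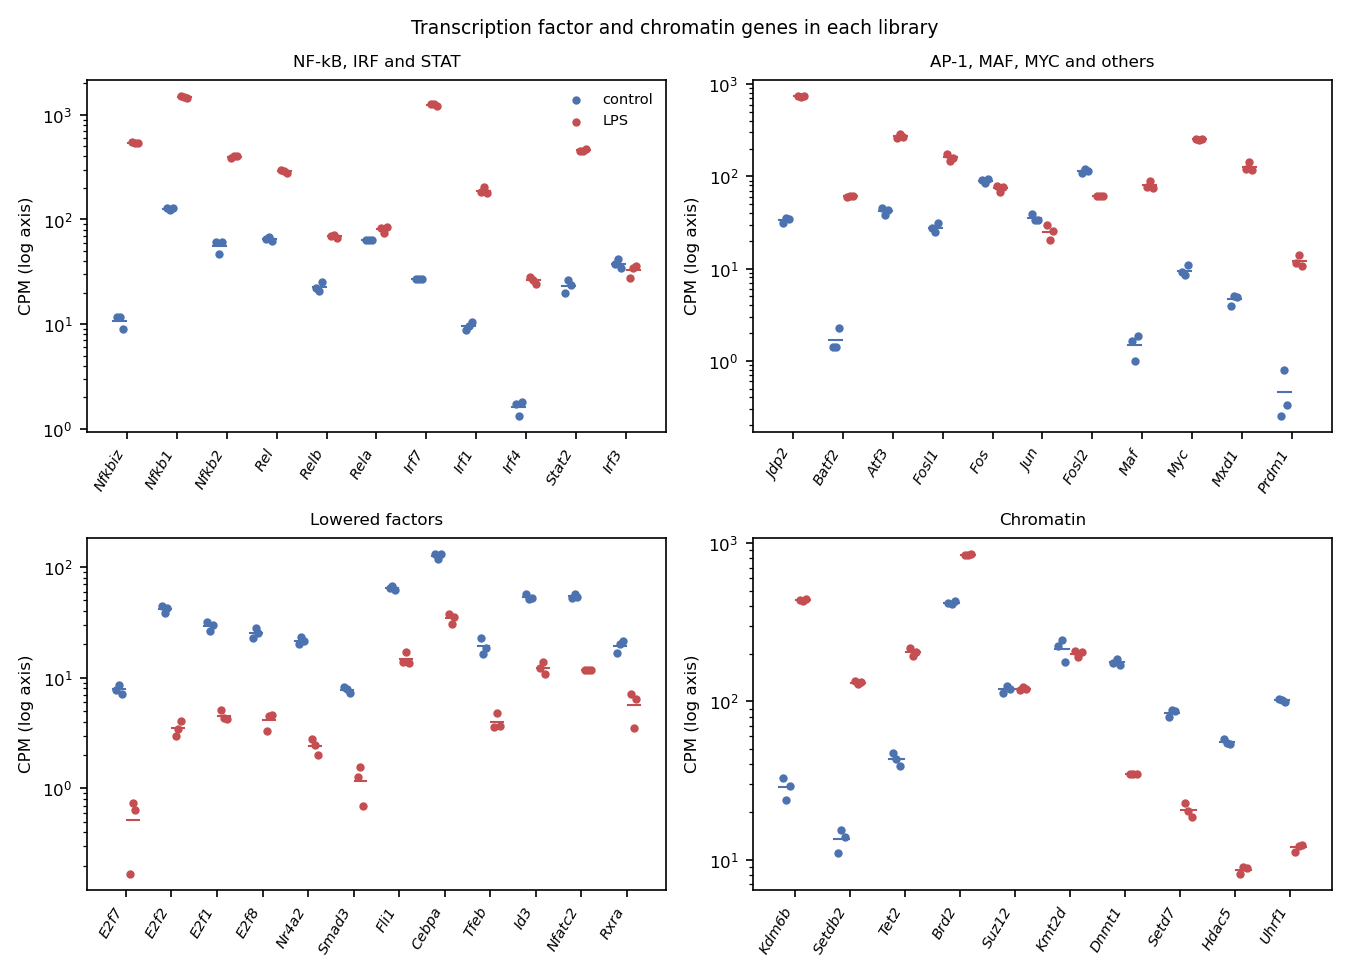
Levels (CPM, log axis) of transcription factor and chromatin genes in each of the 3 control (blue) and 3 LPS (red) libraries, with horizontal lines at the group means. The groups lie far apart for Nfkbiz, Irf7, Jdp2, Maf and Myc, and for E2f7, E2f2 and Uhrf1 in the other direction, while they overlap for Irf3, Suz12 and Kmt2d.

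Several lineage factors were lower. Of 20 myeloid lineage, MEF2, RUNX and MAF genes 13 (65%) were called lower and 7 (35%) higher, against 30.1 and 32.8% of all tested genes. The share of rises was thus close to the background. Nfatc2 (log2 change -2.20, SE 0.14), Runx2 (log2 change -1.67, SE 0.19) and Mef2c (log2 change -1.21, SE 0.06) were among the falls. Ikzf1 (log2 change 1.38, SE 0.08), Lmo2 (log2 change 1.39, SE 0.08) and the repressor gene Bcl6 (log2 change 1.23, SE 0.08) were among the rises. The C/EBP genes moved apart. Cebpa, the factor of myeloid differentiation, went from 126 ± 8.07 to 34.4 ± 3.5 CPM, whereas Cebpd, an acute response factor, went from 23.4 ± 2.92 to 123 ± 1.41 CPM and Cebpb from 141 ± 7.78 to 327 ± 18.2 CPM. In the ETS family Fli1 (log2 change -2.12, SE 0.08), Erf (log2 change -2.04, SE 0.11) and Elk3 (log2 change -1.39, SE 0.08) fell, and Ets2 (log2 change 2.40, SE 0.06), Etv3 (log2 change 1.84, SE 0.07) and Etv6 (log2 change 1.39, SE 0.06) rose. The immediate early gene Egr1 rose (from 11.8 ± 1.2 to 58.6 ± 1.93 CPM), while the orphan receptor genes Nr4a1 (from 8.38 ± 0.25 to 2.33 ± 0.787 CPM) and Nr4a2 (from 21.5 ± 1.53 to 2.41 ± 0.372 CPM) fell, and Klf7 rose by 2.46 (SE 0.12). Among other nuclear receptors the retinoid partner gene Rxra went from 19.4 ± 2.32 to 5.68 ± 1.94 CPM, and the glucocorticoid receptor gene Nr3c1 went from 70.7 ± 5.51 to 149 ± 7.67 CPM.

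The MYC network shifted towards Myc and its antagonist Mxd1 together. Myc had 9.12, 8.42 and 10.9 CPM in control and 256, 248 and 254 CPM with LPS, a log2 fold change of 4.73 (SE 0.11, adjusted p = 9.63e-18). Mxd1, which competes with MYC for its partner MAX, had 3.97, 5.03 and 4.89 CPM in control and 119, 142 and 118 CPM with LPS, a log2 change of 4.77 (SE 0.18). Another gene of that family, Mxd4, went from 19.4 ± 1.51 to 4.05 ± 1.3 CPM. All 3 genes had groups that did not overlap. Within the MiT/TFE factors of lysosome and autophagy genes, Tfec rose (log2 change 1.69, SE 0.11), Tfeb fell (log2 change -2.27, SE 0.18), and Tfe3 was at 145 ± 6.85 and 153 ± 2.15 CPM and not called. The receptor gene Ahr, a sensor of aromatic ligands, rose by 2.96 (SE 0.19) and its repressor gene Ahrr changed by -1.57 (SE 0.18). Prdm1, which encodes the repressor BLIMP1, went from 0.459 ± 0.296 to 12 ± 1.89 CPM, and Smad3, a transducer of TGF-beta, went from 7.81 ± 0.447 to 1.17 ± 0.445 CPM.

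Both activating and repressing E2F genes fell. The activators E2f1 and E2f2 went from 29.4 ± 2.99 to 4.53 ± 0.47 CPM and from 42 ± 3.34 to 3.48 ± 0.537 CPM. The atypical repressor E2f7 had 7.68, 8.65 and 7.17 CPM in control and 0.168, 0.735 and 0.639 CPM with LPS, a log2 change of -3.96 (SE 0.33), and E2f8 went from 25.3 ± 2.57 to 4.12 ± 0.738 CPM. E2f4 and E2f5, which bind the pocket proteins of resting cells, were the 2 members called higher, by 0.41 (SE 0.07) and 0.61 (SE 0.13), and the rise of E2f4 turned into a fall against library totals. Among chromatin genes 19 of 49 were called higher and 19 lower (38.8% each), against 32.8 and 30.1% of all tested genes. Kdm6b, the demethylase JMJD3 that removes methyl groups from histone H3, had 32.9, 23.7 and 29.4 CPM in control and 435, 432 and 444 CPM with LPS, a log2 change of 3.92 (SE 0.08). Setdb2 (log2 change 3.29, SE 0.12) and Tet2 (log2 change 2.25, SE 0.09) also rose. Dnmt1 and Uhrf1, which copy DNA methylation after replication, went from 177 ± 8.42 to 34.8 ± 0.156 CPM and from 102 ± 2.78 to 11.9 ± 0.622 CPM. Hdac5 fell by 2.68 on the log2 scale and Ezh2, the enzyme of Polycomb complex PRC2, by 1.57, whereas its partner Suz12 was at 119 ± 6.41 and 120.4 ± 2.92 CPM and not called.

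Receptor genes rose more often than they fell, with 88 higher and 43 lower by at least 2-fold. Of 242 tested receptor genes 129 (53.3%) were called higher and 75 (31%) lower, against 32.8 and 30.1% of all tested genes. The median log2 change of the receptor genes was 0.45, against 0.008 over all genes. Under library totals the medians of 5 of the 7 receptor lists were below 0. Of 39 chemoattractant, lipid and nucleotide G protein-coupled receptors 24 (61.5%) were called higher and 11 (28.2%) lower. Of 19 TNF receptor family genes 9 (47.4%) were called higher and 7 (36.8%) lower. Of 37 immunoglobulin-type, SLAM and TREM receptors 20 (54.1%) were called higher and 13 (35.1%) lower.

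Migration and lipid-sensing receptors changed in both directions. S1pr1, through which cells follow sphingosine phosphate out of tissues, had 66.7, 64.8 and 60.8 CPM in control and 0.921, 1.23 and 1.06 CPM with LPS, a log2 fold change of -5.91 (SE 0.12, adjusted p = 9.13e-19). Cxcr4, the receptor of CXCL12, had 37.8, 46.4 and 42.6 CPM in control and 1.17, 1.37 and 1.7 CPM with LPS, a log2 change of -4.91 (SE 0.18). Gpr183, a receptor of oxysterols derived from the product of Ch25h, went from 107 ± 4.81 to 6.06 ± 0.711 CPM. Every LPS library was below every control library in these genes. The cannabinoid receptor gene Cnr2 (from 10.1 ± 0.641 to 0.663 ± 0.279 CPM) and the fractalkine receptor gene Cx3cr1 (from 535 ± 10.9 to 282 ± 15.5 CPM) also fell. In the other direction, Ccrl2, which presents chemerin without signalling, had 1.28, 1.79 and 0.827 CPM in control and 208, 241 and 225 CPM with LPS, a log2 change of 7.46 (SE 0.16). Hcar2, the receptor of niacin and ketone bodies, went from 1.22 ± 0.292 to 120.3 ± 3.47 CPM, the prostaglandin E2 receptor genes Ptger2 and Ptger4 went from 0.237 ± 0.0412 to 17.4 ± 1.02 CPM and from 13.3 ± 1.07 to 36.8 ± 0.962 CPM, and the adenosine receptor gene Adora2b went from 4.49 ± 0.758 to 74.9 ± 7.72 CPM. Adora2a rose from 0, 0.16 and 0 CPM to 3.35, 4.41 and 4.9 CPM. Gpr84, which senses medium-chain fatty acids, rose by 3.20 (SE 0.12). C5ar1, the complement C5a receptor gene, was at 249.9 ± 4.34 and 236 ± 4.04 CPM and not called.

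Among receptors of the TNF family, Cd40 had 1.66, 0.917 and 0.595 CPM in control and 475, 504 and 462 CPM with LPS, a log2 fold change of 8.80 (SE 0.18, adjusted p = 1.92e-18). Fas, the death receptor, had 2.09, 2.15 and 1.85 CPM in control and 235, 220.2 and 231 CPM with LPS, a log2 change of 6.81 (SE 0.12). Tnfrsf1b, the second TNF receptor, had 107, 113 and 107 CPM in control and 2192, 2129 and 2114 CPM with LPS, a log2 change of 4.29 (SE 0.05). The groups were far apart in all 3 genes. Tnfrsf11a, the receptor RANK of osteoclast differentiation, fell by 1.32 on the log2 scale. Of 45 cytokine and growth factor receptor genes 22 (48.9%) were called higher and 11 (24.4%) lower, against 32.8 and 30.1% of all tested genes. Receptors of growth and identity signals were among the lower ones, with Csf1r (receptor of the survival factor CSF1) going from 2605 ± 54.7 to 852 ± 28.6 CPM, Tgfbr1 from 151 ± 10.8 to 25.8 ± 2.47 CPM, Tgfbr2 from 199 ± 4.92 to 83.6 ± 6.64 CPM and the insulin receptor gene Insr from 21.1 ± 1.83 to 9.47 ± 0.326 CPM. The annotated exons of Csf1r overlap those of Hmgxb3 on the opposite strand, so reads may be shared. Il15ra (from 4.85 ± 0.957 to 90.1 ± 8.19 CPM), Axl (from 4.94 ± 0.574 to 81.3 ± 5.91 CPM), Il10ra (from 42.2 ± 1.17 to 144 ± 6.06 CPM) and Met (from 0.0775 ± 0.107 to 6.75 ± 0.414 CPM), the receptor of hepatocyte growth factor, were higher. Csf2rb and Ifnar1 were not called, at 131 ± 1.29 and 131 ± 4.28 and 121 ± 5.37 and 112 ± 3.23 CPM. Il13ra2, a decoy receptor of interleukin-13, showed the largest rise of the 21 interleukin receptor chain genes measured, 4.70 (SE 0.11).

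**Figure D3:**
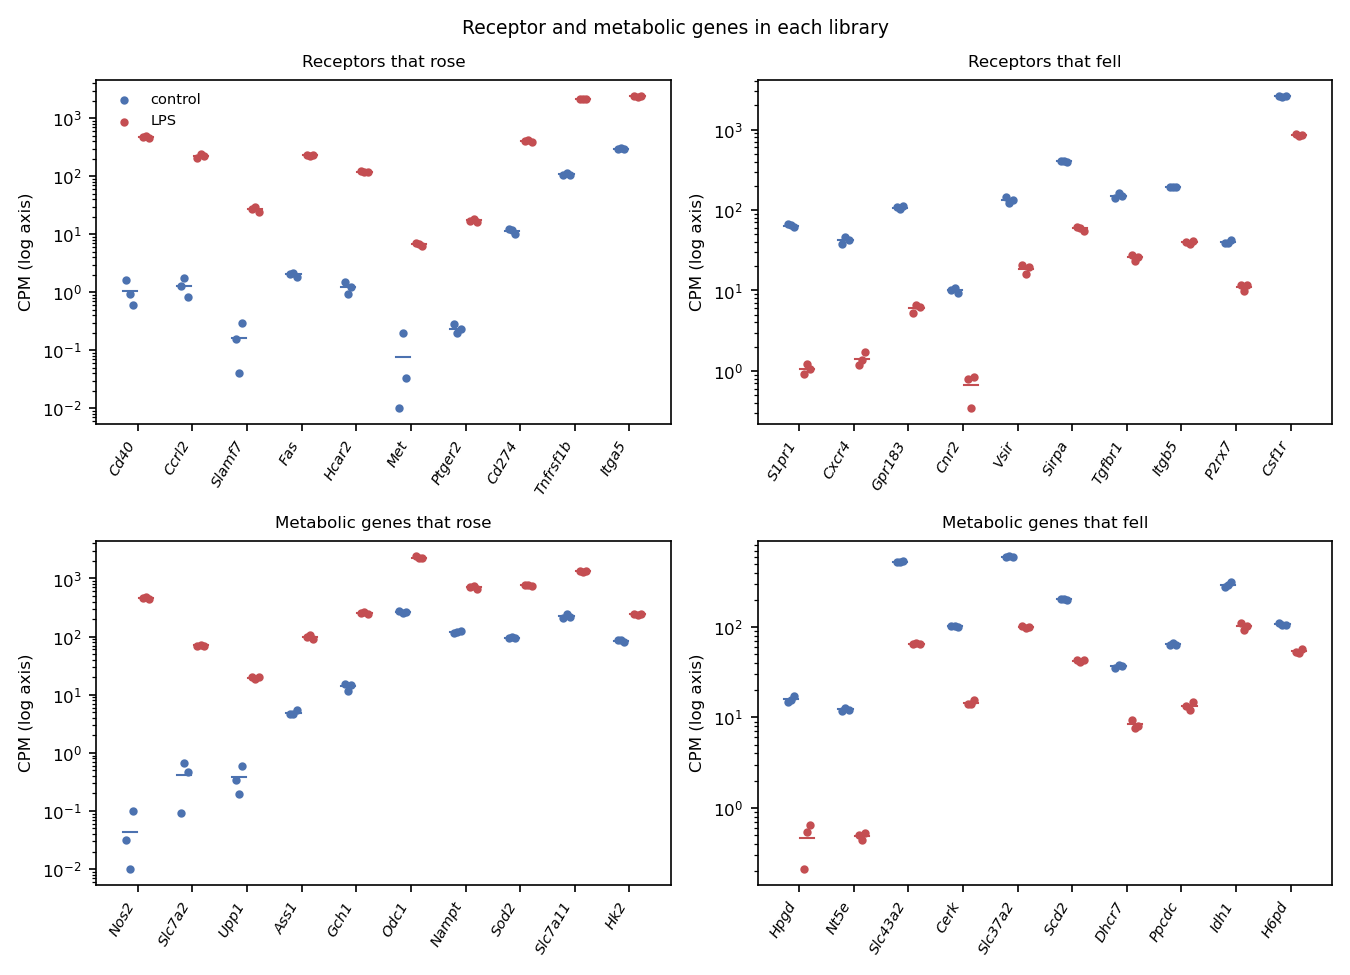
Levels (CPM, log axis) of receptor genes (top) and metabolic genes (bottom) in each of the 3 control (blue) and 3 LPS (red) libraries, with horizontal lines at the group means and values of 0 drawn at 0.01. For the genes drawn on the left every LPS library lies above every control library, and for those on the right every LPS library lies lower.

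Inhibitory and phagocytic receptors moved both ways. Cd274, the checkpoint ligand PD-L1, had 12.6, 12.1 and 10.1 CPM in control and 412, 415 and 398 CPM with LPS, a log2 change of 5.14 (SE 0.09). Slamf7 went from 0.165 ± 0.129 to 27.2 ± 2.98 CPM and the co-stimulatory ligand gene Icosl from 3 ± 0.238 to 35.2 ± 2.95 CPM. Other receptor genes fell. The checkpoint gene Vsir (VISTA) went from 134 ± 10.4 to 18.6 ± 2.5 CPM, Sirpa, the receptor of the signal CD47, went from 401 ± 2.13 to 59.1 ± 3.13 CPM, and Trem2 went from 19.9 ± 9.93 to 4.81 ± 0.781 CPM. Fc receptor genes were split, since Fcgr1 (log2 change 3.17, SE 0.17) and Fcgr4 (log2 change 3.59, SE 0.18) rose and Fcgr3 (log2 change -1.66, SE 0.10) fell. The lectin genes Clec4e (from 432 ± 16.3 to 2216 ± 93 CPM) and Mrc1 (from 0.989 ± 0.462 to 8.32 ± 0.556 CPM) rose, while Clec10a (log2 change -1.0, SE 0.08) and Clec4n (log2 change -1.41, SE 0.11) fell. The scavenger receptor gene Cd36 was at 1683 ± 96.9 and 1838 ± 122 CPM and not called, and Scarb1, which takes up lipoprotein cholesterol, went from 63.5 ± 0.739 to 30.4 ± 1.82 CPM. Among integrin genes Itga5 (from 301 ± 3.05 to 2408 ± 83.2 CPM) and Itgax (from 5.73 ± 0.586 to 74.4 ± 4.24 CPM) were higher and Itgb5 (from 193 ± 0.855 to 39.6 ± 1.66 CPM) and Itga6 (from 11.5 ± 1.43 to 3.92 ± 1.04 CPM) lower, and the adhesion gene Icam1 rose by 3.34 (SE 0.09). Of the ion channel genes, 14 (48.3%) of 29 were called higher and 9 (31%) lower, against 32.8 and 30.1% of all tested genes. The store calcium sensors moved apart, Stim2 by 2.44 (SE 0.06) and Stim1 by -0.83 (SE 0.11), as did the inositol trisphosphate receptors, Itpr1 by 1.63 (SE 0.09) and Itpr3 by -1.84 (SE 0.07). P2rx7, the ATP-gated channel of inflammasome activation, went from 39.9 ± 1.82 to 11 ± 1.12 CPM.

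Signalling genes were called higher in 115 (59.6%) and lower in 55 (28.5%) of 193 cases, against 32.8 and 30.1% of all tested genes. Of the 5 signalling lists, the ubiquitin ligases and deubiquitinases of innate signalling held the largest share of rises, 30 of 37 with 3 falls and a median of 1.54. Socs3, the inhibitor of interleukin-6 signalling, had 14, 12.3 and 11.9 CPM in control and 1010, 1007 and 943 CPM with LPS, a log2 change of 6.27 (SE 0.07). Tnfaip3, the deubiquitinase A20 that restrains NF-kB, had 12, 12.2 and 11.6 CPM in control and 489, 489 and 489 CPM with LPS, a log2 change of 5.36 (SE 0.07). Usp18 went from 23.7 ± 5.97 to 1787 ± 30.8 CPM, and Rnf144b, a ubiquitin ligase, went from 22.6 ± 0.988 to 2.56 ± 0.477 CPM. In the first 3 genes the LPS libraries were above the control libraries by a wide margin, and in Rnf144b below. Of 36 phosphatase genes 23 were called higher and 9 lower, and the MAP kinase phosphatase genes Dusp1 (from 26.4 ± 2.35 to 176 ± 3.88 CPM), Dusp2 (from 5.14 ± 1.17 to 133 ± 12 CPM), Dusp5 (from 27.1 ± 0.635 to 334 ± 11.3 CPM) and Dusp6 (from 25 ± 1.81 to 129.6 ± 6.56 CPM) were among the rises. Dusp3 fell by 1.21 on the log2 scale, as did the inositol phosphatase gene Inpp5d (SHIP1) by 1.33 and Ptpn6 (SHP-1) by 0.91.

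Kinase genes were called higher in 35 (62.5%) and lower in 16 (28.6%) of 56 cases, against 32.8 and 30.1% of all tested genes. Src had 8.22, 6.3 and 8.07 CPM in control and 279, 277 and 264 CPM with LPS, a log2 fold change of 5.17 (SE 0.10, adjusted p = 1.6e-18). The survival kinase gene Pim1 went from 23.8 ± 0.814 to 388 ± 11.2 CPM and Plk2 from 17.9 ± 3.84 to 257 ± 11 CPM. Mknk2, which phosphorylates a translation factor, went from 139 ± 3.55 to 43.1 ± 3.4 CPM, and Map3k14, the kinase NIK of the non-canonical NF-kB route, went from 38 ± 3.43 to 15.7 ± 1.97 CPM. Mapk9 (JNK2) was at 75 ± 5.38 and 72.7 ± 2.74 CPM and not called. Regulators of G protein signalling rose for Rgs16 (from 12.5 ± 1.7 to 176 ± 5.22 CPM), Rgs1 (from 44.5 ± 3.57 to 175 ± 12.1 CPM) and Rgs2 (log2 change 1.01, SE 0.09) and fell for Rgs10 (log2 change -1.11, SE 0.11), while Arrb1, the arrestin that desensitises receptors, went from 169 ± 1.06 to 21 ± 0.667 CPM. The exchange factor gene Arhgef3 rose (from 5.2 ± 1.57 to 127 ± 1.2 CPM), Arhgef6 fell (from 214 ± 7.66 to 46 ± 2.8 CPM), and Rhob rose by 2.09 (SE 0.10) while Rhoa was at 325 ± 11.2 and 348 ± 7.3 CPM and not called.

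**Figure D4:**
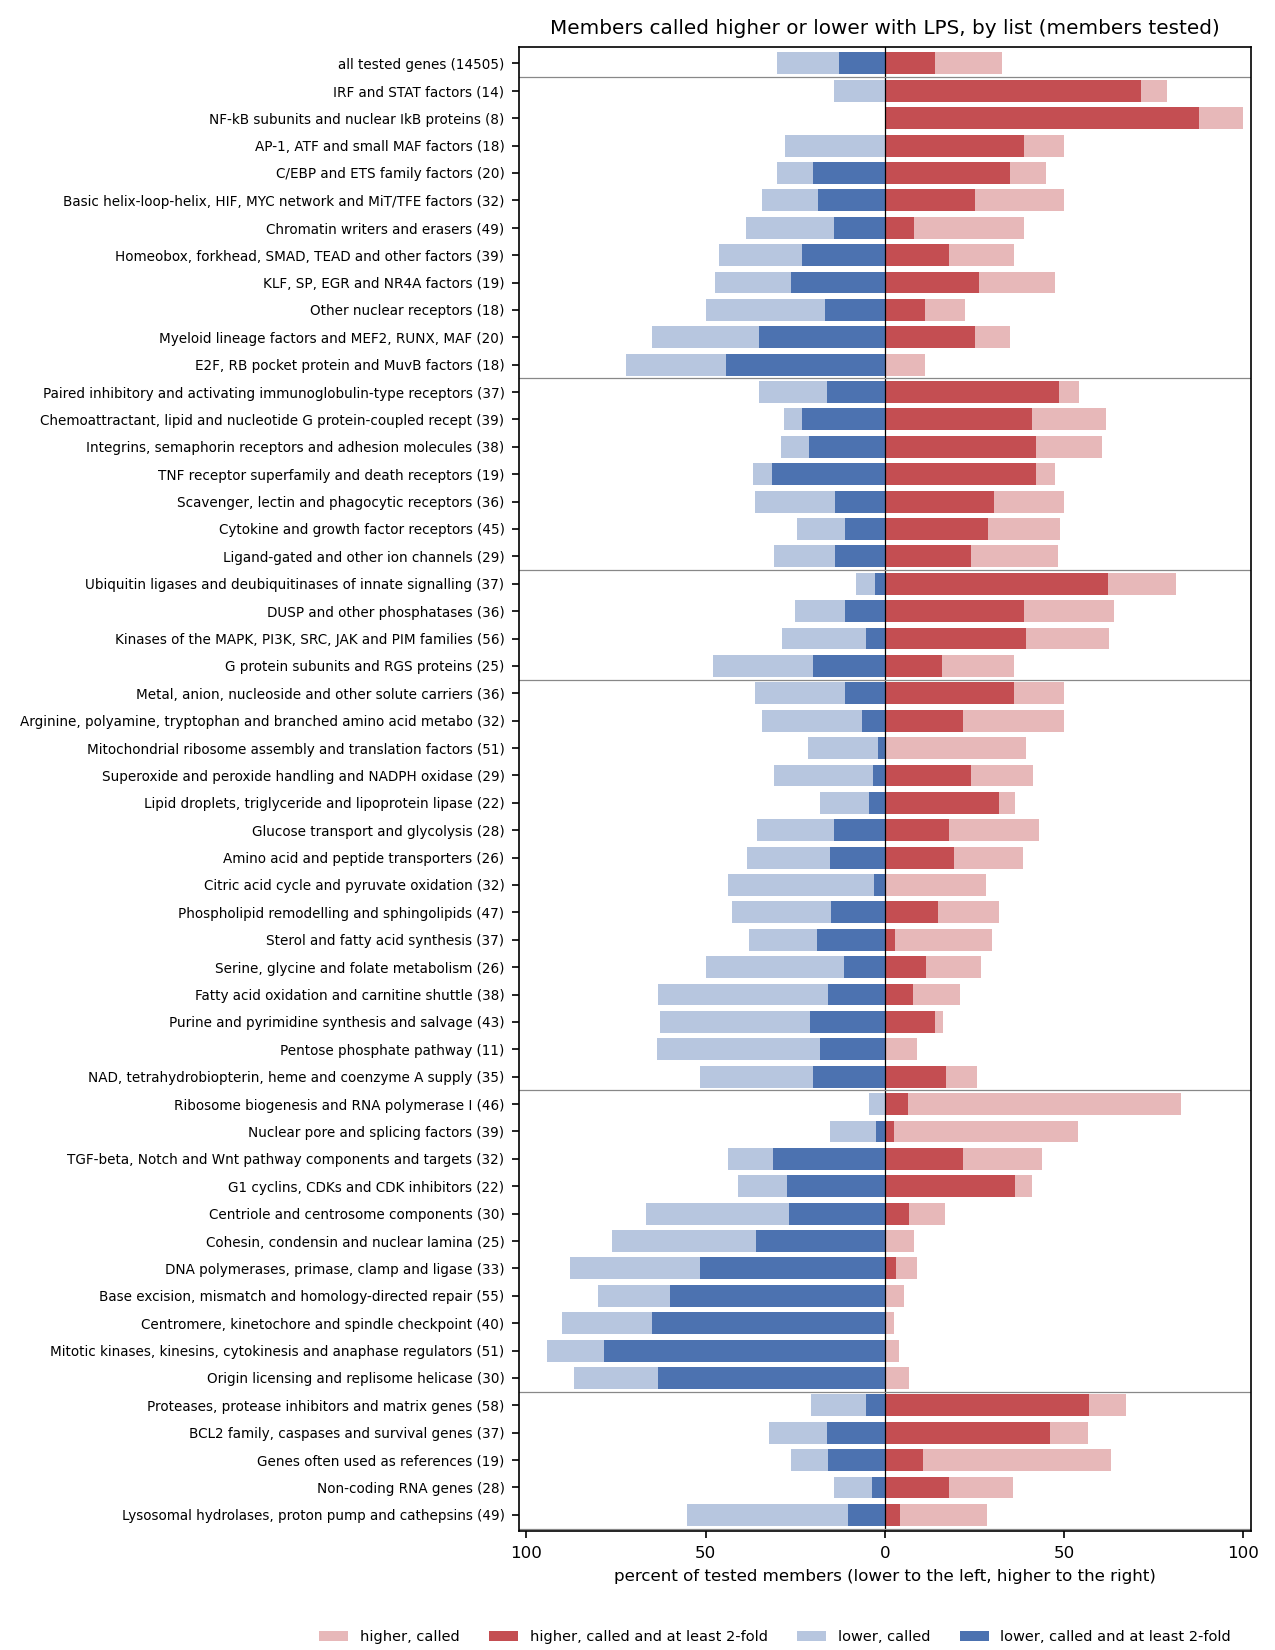
Percent of tested members called lower (blue, to the left) and higher (red, to the right) with LPS for lists of genes, with the part that changed at least 2-fold in full colour and the number tested in brackets. The top bar gives all 14505 tested genes, 32.8% higher and 30.1% lower, and lists are grouped as transcription factors, receptors, signalling, metabolism, cell cycle and growth, and others, from top to bottom.

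Of 492 tested metabolic genes 163 were called higher and 204 lower, 70 and 59 of them by at least 2-fold. These are 33.1% higher and 41.5% lower, against 32.8 and 30.1% of all tested genes, and at 2-fold 14.2 and 12% against 13.9 and 12.7%, which is close to the background. Genes of arginine use held the largest rise in the metabolic lists, that of Nos2. Nos2, the inducible nitric oxide synthase, had 0.0312, 0 and 0.0992 CPM in control and 466, 488 and 445 CPM with LPS. Genes that supply its substrate were also higher. The cationic amino acid transporter gene Slc7a2 had 0.0937, 0.678 and 0.463 CPM in control and 68.8, 73 and 70 CPM with LPS, a log2 change of 7.48 (SE 0.29), and Ass1, which rebuilds arginine from citrulline, went from 4.89 ± 0.46 to 98.2 ± 6.9 CPM. Gch1, the first enzyme of the cofactor tetrahydrobiopterin that nitric oxide synthase needs, had 15.5, 11.5 and 14.8 CPM in control and 253, 262 and 248 CPM with LPS, a log2 change of 4.18 (SE 0.09). None of the groups of these 4 genes overlapped. Odc1, which turns ornithine into the polyamine putrescine, went from 261 ± 10.8 to 2282 ± 97.6 CPM, and Arg2 went from 1.12 ± 0.395 to 6.18 ± 1.39 CPM. Nampt, the main enzyme of NAD salvage, went from 119.6 ± 4.79 to 707 ± 33.7 CPM, and the NAD-consuming ADP-ribosyltransferase gene Parp14 went from 59.1 ± 13.9 to 3170 ± 68.9 CPM.

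Glucose genes were split by isoform. Of 28 glucose transport and glycolysis genes 12 (42.9%) were called higher and 10 (35.7%) lower, against 32.8 and 30.1% of all tested genes. The hexokinase and transporter isoforms moved apart, with Hk2 (from 85.7 ± 3.61 to 242 ± 2.83 CPM), Hk3 (from 78.2 ± 2.28 to 159 ± 8.67 CPM), Slc2a1 (from 161 ± 6.16 to 426 ± 12.8 CPM) and Slc2a6 (from 54 ± 4.81 to 172 ± 4.74 CPM) higher and Hk1 (from 157 ± 4.88 to 94.4 ± 3.9 CPM) and Slc2a3 (from 46 ± 3.17 to 17.9 ± 1.08 CPM) lower. Pfkfb3, which makes an activator of phosphofructokinase, went from 29.2 ± 0.964 to 66 ± 5.5 CPM, and Pdk1, which closes pyruvate dehydrogenase, went from 30.6 ± 2.39 to 11.3 ± 1.41 CPM. Ldha and Gpi1 were not called, at 1139 ± 18.5 and 1165 ± 8.48 and 465 ± 15.3 and 473 ± 12.1 CPM. Of 11 pentose phosphate genes 7 were called lower and 1 higher. H6pd (from 107 ± 2.69 to 53.6 ± 2.44 CPM), Prps2 (from 51.6 ± 3.17 to 18.8 ± 1.02 CPM), Shpk (from 3.19 ± 0.467 to 1.09 ± 0.436 CPM, the sedoheptulose kinase), G6pdx (log2 change -0.52, SE 0.07), Taldo1 (log2 change -0.50, SE 0.05), Tkt (log2 change -0.39, SE 0.05) and Pgls (log2 change -0.22, SE 0.07) fell, Rpe rose (log2 change 0.93, SE 0.07), and Pgd, Prps1 and Rpia were at -0.03, -0.02 and 0.20 and not called. The libraries of Pgls overlapped between the groups, and its call was lost without control 1 (-0.17) or LPS 1 (-0.19).

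In the citric acid cycle 9 (28.1%) of 32 genes were called higher and 14 (43.8%) lower, against 32.8 and 30.1% of all tested genes. Of the citric acid cycle genes 1, Idh1, changed by at least 2-fold. Idh1, the cytosolic isocitrate dehydrogenase, had 278, 290.2 and 318 CPM in control and 111, 93 and 103 CPM with LPS, a log2 fold change of -1.53 (SE 0.07, adjusted p = 5.9e-13). Idh2, its mitochondrial form, went from 84.8 ± 3.94 to 58.2 ± 1.26 CPM, and the citrate synthase gene Cs was at 237 ± 4.87 and 238 ± 1.75 CPM and not called. Acly, which splits exported citrate, rose by 0.37 (SE 0.05), a rise that turned into a fall against library totals. Of 35 complex I subunit genes 7 were called higher, 3 lower and 25 neither. Superoxide and peroxide genes included larger rises, with Sod2 going from 95.7 ± 3.86 to 764 ± 12.4 CPM, Cybb, the catalytic subunit of the phagocyte oxidase, from 529.5 ± 20.4 to 2824 ± 91.2 CPM and Prdx1 from 1331 ± 51.2 to 5418 ± 133 CPM. The glutathione peroxidase genes Gpx1 (log2 change -0.81, SE 0.05) and Gpx4 (log2 change -0.73, SE 0.08) and Msrb1 (log2 change -1.42, SE 0.07) fell.

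Lipid breakdown genes fell more often than they rose. Of 38 fatty acid oxidation and carnitine genes 24 were called lower and 8 higher, with Crat (from 22.7 ± 0.427 to 7.28 ± 0.491 CPM), Acox3 (from 33.9 ± 2.27 to 11.2 ± 1.22 CPM), Crot (from 19.2 ± 1.86 to 8.2 ± 0.857 CPM) and Cpt1a (from 150.5 ± 1.79 to 105 ± 5.21 CPM) lower and the acyl-CoA synthetase gene Acsl1 higher (from 40.7 ± 2.52 to 104 ± 2.42 CPM). Of 22 lipid storage genes 8 (36.4%) were called higher and 4 (18.2%) lower, against 32.8 and 30.1% of all tested genes. The rises included Hilpda (from 24.3 ± 0.689 to 75.6 ± 4.85 CPM) and Lpl (from 451 ± 46 to 1358 ± 64.9 CPM). The droplet coat gene Plin2 was at 314 ± 6.6 and 322 ± 12.5 CPM and not called. Sterol and fatty acid synthesis had 11 rises (29.7%) and 14 falls (37.8%) in 37. Among the falls were the desaturase gene Scd2 (from 204 ± 1.77 to 42.3 ± 1.36 CPM), Dhcr7 (from 36.9 ± 1.69 to 8.34 ± 0.853 CPM), Elovl6 (log2 change -2.08, SE 0.12) and Elovl5 (log2 change -1.66, SE 0.09). Fasn was at 279.9 ± 2.45 and 298 ± 11.2 CPM and not called. Ceramide kinase (Cerk) went from 102 ± 1.04 to 14.6 ± 0.878 CPM and Ugcg, which makes glucosylceramide, went from 20.1 ± 0.645 to 61.6 ± 7.94 CPM.

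Genes of nucleotide supply fell more often than they rose. Of 43 purine and pyrimidine genes 27 were called lower and 7 higher. Deoxynucleotide supply was lower in Tk1 (from 42.8 ± 4.09 to 3.52 ± 0.618 CPM), Rrm2 (log2 change -3.14, SE 0.12) and Dut (from 36.4 ± 2.03 to 9.06 ± 1.38 CPM). In contrast, the phosphorylase genes Upp1 and Pnp, which release ribose phosphate from nucleosides, went from 0.379 ± 0.2 to 19.5 ± 1.04 CPM and from 23.4 ± 1.61 to 219 ± 6.65 CPM, and Samhd1, which destroys deoxynucleotides, went from 90.1 ± 1.16 to 696 ± 31.2 CPM. The nucleoside carrier gene Slc28a2 went from 0.186 ± 0.0862 to 8.48 ± 1.8 CPM. One-carbon genes had 7 rises and 13 falls in 26, among them the glycine cleavage gene Gldc (from 14.7 ± 1.37 to 3.3 ± 0.0454 CPM) and Mthfd2 (from 71.3 ± 3.81 to 143 ± 3 CPM). Of 208 solute carrier genes tested 62 were called higher and 80 lower, which is 29.8 and 38.5% against 32.8 and 30.1% of all tested genes. The cystine carrier gene Slc7a11 went from 224 ± 19.5 to 1322 ± 36.9 CPM with its partner gene Slc3a2 from 346 ± 10.6 to 801 ± 16.8 CPM, the metal carrier gene Slc11a2 from 40 ± 1.95 to 270 ± 3.12 CPM and the peptide and histidine carrier gene Slc15a3 from 58.6 ± 2.92 to 483 ± 14.8 CPM. Slc43a2, a carrier of large neutral amino acids, had 522, 518 and 539 CPM in control and 64.8, 66.8 and 64.5 CPM with LPS, a log2 change of -3.01 (SE 0.07). Slc37a2, a sugar phosphate carrier gene of macrophages, went from 600 ± 3.44 to 99.5 ± 2.05 CPM. Both were lower in every LPS library than in any control library.

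The 4 lists with the highest shares of falls, among the 54 lists of named groups, were of cell division. Over all tested genes 30.1% were called lower and 32.8% higher. Of 51 mitotic kinase, kinesin, cytokinesis and anaphase genes 48 (94.1%) were called lower and 2 higher. For 40 centromere and kinetochore genes the counts were 36 (90%) and 1. They were 26 (86.7%) and 2 for 30 origin licensing and helicase genes, and 29 (87.9%) and 3 for 33 DNA polymerase and clamp genes. The median log2 changes of these 4 lists were -1.36, -1.29, -1.41 and -1.16. Cohesin and condensin genes fell in 19 (76%) of 25 cases and centriole and centrosome genes in 20 (66.7%) of 30. In bulk RNA, fewer dividing cells and less RNA per dividing cell cannot be told apart.

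Large falls in these lists and in DNA repair were found in the following genes. Ung, which removes uracil from DNA, had 21, 19.4 and 19.8 CPM in control and 0.0419, 0.343 and 0.319 CPM with LPS, a log2 fold change of -6.45 (SE 0.44, adjusted p = 1.67e-10). Cdc6, which loads the replicative helicase, had 21.9, 20 and 21.6 CPM in control and 1.63, 1.67 and 1.86 CPM with LPS, a log2 change of -3.62 (SE 0.15). Brca1, of homology-directed repair, had 27.6, 27.5 and 28.6 CPM in control and 2.81, 2.99 and 3.67 CPM with LPS, a log2 change of -3.15 (SE 0.13). Every LPS library was below every control library in these genes. Of 55 repair genes 44 (80%) were called lower and 3 (5.45%) higher, against 30.1 and 32.8% of all tested genes. Chek2 (log2 change -2.70, SE 0.27) was among the falls and the thymine glycosylase gene Tdg among the rises (log2 change 0.79, SE 0.09). Gmnn, the inhibitor of relicensing, went from 36.6 ± 2.13 to 3.48 ± 1.3 CPM, Clspn from 38.1 ± 2.69 to 4.63 ± 1.38 CPM, the histone chaperone gene Chaf1b from 17.7 ± 1.58 to 2.52 ± 0.285 CPM and Pole2 from 9.62 ± 0.866 to 2.05 ± 0.467 CPM. In mitosis Wee1, the kinase that holds cells before division, went from 26.5 ± 2.9 to 4.49 ± 0.234 CPM, Cenpf from 82.8 ± 4.99 to 24.6 ± 4.55 CPM and Sgo1 from 11.9 ± 1.54 to 2.96 ± 0.628 CPM. The topoisomerase gene Top1 rose (from 172 ± 3.4 to 403 ± 9.76 CPM), as did Zwint (from 70.8 ± 4 to 120.4 ± 5.58 CPM) and the centriole genes Cenpj (log2 change 2.13, SE 0.11) and Sass6 (log2 change 3.15, SE 0.10). The annotated exons of Sass6 overlap those of Trmt13 and those of Ccne2 overlap those of Ints8, each on the opposite strand, so reads may be shared.

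Cyclin and inhibitor genes did not fall together. Ccne1 (from 14 ± 1.25 to 1.73 ± 0.642 CPM), Ccne2 (from 20.5 ± 1.46 to 2.21 ± 0.206 CPM) and Cdk2 (from 38 ± 1.82 to 7.92 ± 0.742 CPM), which drive entry into S phase, were lower. Ccnd1 was at 212 ± 9.41 and 202 ± 4.17 CPM and not called. Ccnd2, another D-type cyclin, had 0.125, 0.479 and 0.298 CPM in control and 26.5, 28.2 and 22.4 CPM with LPS, a log2 change of 6.45 (SE 0.33). Cdkn1a, the inhibitor p21, had 147, 147 and 158 CPM in control and 849, 904 and 872 CPM with LPS, a log2 change of 2.54 (SE 0.07), and Gadd45b went from 10.1 ± 1.3 to 210.3 ± 5 CPM. The inhibitor gene Cdkn2c fell (from 42.1 ± 4.05 to 11.8 ± 1.29 CPM). Ribosome production took another course. Of 46 ribosome biogenesis genes 38 (82.6%) were called higher and 2 (4.35%) lower, against 32.8 and 30.1% of all tested genes. Rrp9 (from 48.6 ± 3.72 to 115 ± 6.25 CPM), Wdr43 (from 185 ± 4.31 to 430.1 ± 9.96 CPM) and Npm1 (log2 change 0.81, SE 0.04) were among the rises and Ubtf (log2 change -0.68, SE 0.06) among the falls. The median of the ribosome biogenesis genes, 0.43, became -0.10 against library totals. Likewise 70 of 77 cytosolic ribosomal protein genes were called higher and 0 lower, with a median of 0.38 that became -0.15, and 41 of 49 proteasome genes were called higher and 1 lower, with a median of 0.47 that became -0.06. Psmb10, an immunoproteasome subunit, rose by 3.43 (SE 0.14) and remained higher under library totals.

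TGF-beta, Notch and Wnt genes had 14 rises and 14 falls in 32 (43.8% each), against 32.8 and 30.1% of all tested genes. The repressor of SMAD signalling Ski (from 116 ± 5.23 to 30.6 ± 2.88 CPM), Tgfbi (from 30.8 ± 2.12 to 6.5 ± 0.821 CPM) and the Wnt co-receptor gene Lrp5 (from 62.5 ± 1.16 to 19.5 ± 1.36 CPM) fell, and the Notch ligand gene Jag1 (from 69.1 ± 1.79 to 238 ± 15.2 CPM) and the receptor gene Fzd5 (from 6.88 ± 0.886 to 24.3 ± 0.69 CPM) rose. Lysosomal genes fell in 27 (55.1%) of 49 cases and rose in 14 (28.6%). Sgsh, a sulfatase of heparan sulfate breakdown, went from 33.4 ± 0.523 to 2.15 ± 0.193 CPM, and the proton pump gene Atp6v0d2 from 41.8 ± 0.184 to 14.1 ± 1.4 CPM, while Npc2, which moves cholesterol out of the lysosome, went from 290.4 ± 6.87 to 928 ± 42.2 CPM and cathepsin C (Ctsc) from 63.4 ± 2.56 to 166 ± 13.3 CPM. The exons of Sgsh overlap those of Card14 on the opposite strand. Of 58 protease, protease inhibitor and matrix genes 39 were called higher and 12 lower, the rises including the membrane metalloprotease gene Mmp14 (from 0.213 ± 0.193 to 23.2 ± 2.24 CPM) and the acute phase gene Saa3 (from 1.05 ± 0.406 to 106 ± 9.91 CPM), and the falls the complement genes C1qa (log2 change -1.28, SE 0.28) and C1qb (log2 change -0.93, SE 0.19). Genes of cell death rose in 21 (56.8%) of 37 cases and fell in 12 (32.4%). Zbp1, a sensor of left-handed nucleic acids, went from 2.73 ± 0.944 to 396 ± 5.79 CPM and Casp4 (the cytosolic LPS sensor caspase-11) from 7.35 ± 1.58 to 179.7 ± 9.35 CPM, and Bmf (from 21 ± 1.11 to 1.33 ± 0.552 CPM) and Bcl2 (from 11.3 ± 0.567 to 2.22 ± 0.345 CPM) fell. Bcl2a1d rose by 4.75 (SE 0.08), but the Bcl2a1 copies are near-identical and the counting could split their reads.

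Non-coding genes and common reference genes changed as well. Mir155hg, the host gene of a microRNA of macrophage activation, had 0.656, 0.917 and 0.562 CPM in control and 25.5, 16.3 and 23 CPM with LPS, a log2 change of 4.93 (SE 0.26). Neat1, the scaffold RNA of paraspeckles, had 537, 558 and 451 CPM in control and 175, 181 and 223 CPM with LPS, a log2 change of -1.42 (SE 0.10). Of 28 non-coding genes 10 (35.7%) were called higher and 4 (14.3%) lower, against 32.8 and 30.1% of all tested genes. Of 19 genes often used as references 17 were called, 12 higher and 5 lower, among them B2m (log2 change 1.49, SE 0.04), Actb (log2 change 1.11, SE 0.06), Tubb5 (log2 change -1.27, SE 0.06) and Gusb (log2 change -1.03, SE 0.05). Under library totals the median of this list turned from 0.31 to -0.22. Hprt was at 110 ± 2.8 and 117 ± 4.21 CPM and not called (adjusted p = 0.168), with a log2 change of 0.09 (SE 0.05) that became -0.44 against library totals. Gapdh was at 103 ± 74 and 124 ± 90.2 CPM with overlapping libraries and an SE of 0.74, and its many processed copies make its count uncertain.

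The same contrast exists in cells that had PSTO, as PSTO+LPS against PSTO, and shares no library with the comparison above. Of the 2014 genes at least 2-fold higher with LPS alone 87.6% were called higher there, 9 lower and 240 neither, and of the 1848 at least 2-fold lower 79.4% were called lower, 3 higher and 377 neither. In that pair 59.7% of all tested genes were called. The test of the difference between the LPS effects called 17.1% of all tested genes. It called 32.2% of the 2014 rises, 517 of them smaller after PSTO, and 22.7% of the 1848 falls, 346 of them smaller after PSTO. These genes were chosen for a large LPS effect without PSTO, which that test subtracts. The choice by itself favours calls and smaller effects after PSTO, so no conclusion is drawn from these shares. Nfkb1, Irf1, Maf, Fas and S1pr1 were not among the genes whose LPS effect differed (adjusted p = 0.139, 0.843, 0.625, 0.0726 and 0.055). Kdm6b rose by 3.92 (SE 0.08) without and 2.62 with PSTO, a difference of -1.31 (adjusted p = 1.37e-07), and Cebpa changed by -1.87 without and -0.48 with it, a difference of 1.40 (adjusted p = 3.44e-06).

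**Figure D5:**
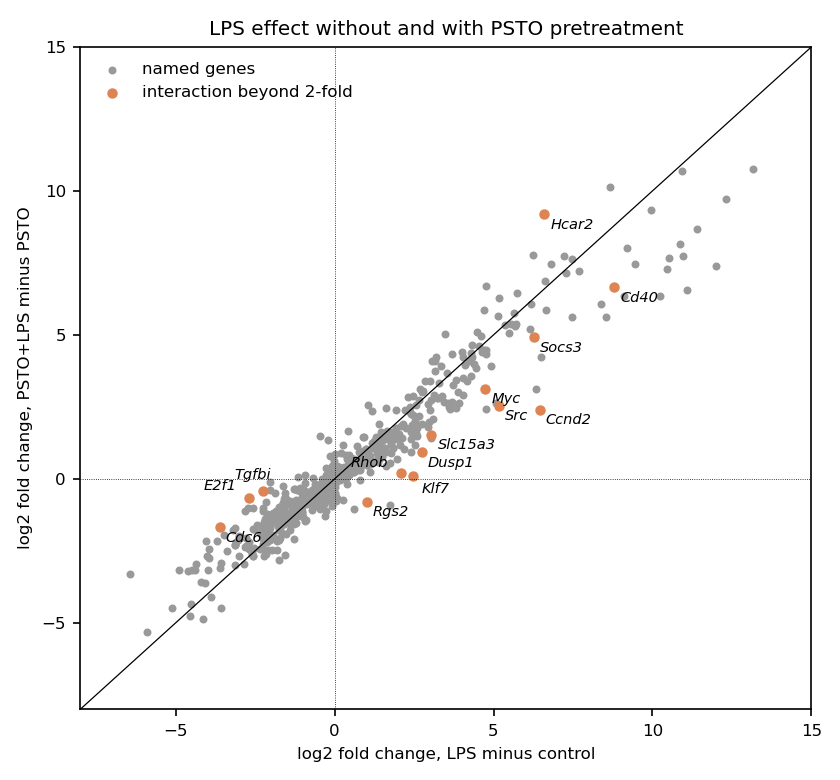
LPS effect on the 600 genes chosen by the naming rule, without PSTO (x axis, log2 fold change of LPS minus control) and with PSTO (y axis, log2 fold change of PSTO+LPS minus PSTO). The line marks equal effects. Orange points are genes named in the text whose effects differed by significantly more than 2-fold, such as Ccnd2, Src and Klf7 below the line and E2f1 and Hcar2 above it. Only the 309 genes named in the text were considered for orange, so grey does not mean no difference for the other genes.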

How the data were processed

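The deposited table holds whole-number read counts per gene for 12 libraries, with no normalization. The submitters' processing notes name HISAT, DESeq2 and the mouse build mm39. How reads were counted, with which strand setting and annotation, is not given in the sources used here. In exons of another build's annotation, 22 of the named genes overlap another tested gene, so their counts can share reads.

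From the deposited counts, edgeR 4.0.16 (R 4.3.3, limma 3.58.1) kept 14505 of 55137 entries by filterByExpr, scaled libraries by TMM and fitted 1 mean per group over all 12 libraries with a quasi-likelihood model. Adjusted p-values are Benjamini-Hochberg over all tested genes. Standard errors (SE) are the log2 change divided by the square root of F. Levels are TMM-scaled CPM, as mean ± SD over 3 libraries. Where a group had 0 reads, folds are set against 3 reads over the group. With 1 to 3 reads the ratio has an exact 95% binomial interval. The procedure was tested on simulated data.

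The members, the lists and the named genes were chosen with earlier results of these data known. A rule chose 600 genes, 309 of which the text names; some others are not reported here. It takes the 15 largest rises and falls outside cytokine, chemokine and interferon lists, among called genes that are no gene models and whose groups do not overlap, up to 4 rises and 4 falls of each list, and the largest rise and fall of each family, all with a mean of at least 5 CPM in the higher group, besides 2 uncalled members of each list and a panel. Lists were not tested. Alternatives were other scaling factors, filters of 50 reads or none, DESeq2 1.42.0, limma-voom, a fit to the 6 libraries, a replicate block and leaving out each library.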

Additional observations from a re-analysis of the deposited data

Results flagged for a closer look

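The LPS effect in cells that had PSTO was compared with that in cells without it for the 309 genes named here, and 14 of them had effects that differed by significantly more than 2-fold (edgeR's test against a 2-fold threshold, adjusted p under 0.05). Over all tested genes there were 45 such cases. Each value is the log2 LPS effect with PSTO minus that without.

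Rises that were smaller with PSTO make up most of these genes. Many of the named genes were chosen for a large LPS effect without PSTO, which by itself favours smaller effects with it. Ccnd2, the D-type cyclin, showed the largest difference, -4.05, with a log2 change of 6.45 without and 2.40 with PSTO. The kinase gene Src differed by -2.63, rising by 5.17 without and 2.54 with PSTO. Klf7 differed by -2.37, with changes of 2.46 without and 0.10 with PSTO. The other smaller rises were in Cd40 (-2.14), Rhob (-1.89), Dusp1 (-1.81), Myc (-1.59), Slc15a3 (-1.51) and Socs3 (-1.35). Rgs2 (-1.80) changed direction, with a log2 change of 1.01 without PSTO and -0.79 with it.

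In the remaining 4 genes the difference was positive. Hcar2 rose by 6.59 without and 9.19 with PSTO, a difference of 2.60. E2f1 (2.03), Cdc6 (1.95) and Tgfbi (1.81) fell less with PSTO, by -2.69, -3.62 and -2.25 without and -0.67, -1.67 and -0.44 with it. These differences include any effect of PSTO on the level before LPS, which was not separated here.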

How the results depend on the processing

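The number of called genes ranged from 8601 to 10428 over the alternatives, against 9121. Under library totals alone, an alternative chosen after seeing the data, 2240 genes were higher and 8188 lower, and 3692 were at least 2-fold lower, with 1013 calls changing direction. The other counts over all tested genes stayed within 1.5 times under every alternative. Counts within lists and families moved beyond that in 84 cases under library totals, 21 with upper-quartile factors and 3 in the fit to 6 libraries. Leaving out 1 library moved at most 6 of them. Without 1 library of either group in turn, 8601 to 8707 genes were called, 4370 to 4557 higher and 4059 to 4310 lower. At 2-fold there were 1952 to 2002 higher and 1777 to 1880 lower, and 2085 to 2207 genes differed in their LPS effect with PSTO. Among the named genes, 15 changed direction under library totals, which were Rela (-0.18), E2f4 (-0.12) and Acly (-0.16) among the called ones. The rest were not called: Cd36 (-0.40), Cs (-0.52), Csf2rb (-0.52), Fasn (-0.44), Gpi1 (-0.50), Hprt (-0.44), Ldha (-0.49), Plin2 (-0.49), Rhoa (-0.43), Rpia (-0.32), Suz12 (-0.51) and Tfe3 (-0.44). With upper-quartile factors 6 uncalled genes did, Cs (-0.15), Csf2rb (-0.14), Gpi1 (-0.13), Ldha (-0.12), Plin2 (-0.11) and Suz12 (-0.13). The cause of each reversal is the shift of the scale given with the read shares. Libraries with the same replicate number showed no large shared deviation, with correlations from -0.03 to 0.05 over 18 pairs. Pairs with different numbers gave -0.05 to 0.04. With 3 libraries a group this cannot tell whether the numbers pair samples, which the labels do not say. A fit with the number as a block called 8987 genes, 4686 higher and 4301 lower. Genes near 1 CPM have wide errors, and the depth cannot show small changes there.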

Other observations

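Families of genes that share the start of a symbol were counted too, and some of their members are also in the lists above. Over all tested genes 32.8% were called higher and 30.1% lower. The members named are the largest called rise or fall with a mean of at least 5 CPM in the higher group. Of 310 tested Zfp genes, mostly zinc finger factors, 47 (15.2%) were called higher and 108 (34.8%) lower, and Zfp811 stood apart with 0.0625, 0.239 and 0 CPM in control and 18, 22.5 and 19.1 CPM with LPS. Of 31 kinesin genes 18 were called lower and 4 higher, with Kif21b going from 38.4 ± 2.02 to 6.57 ± 0.683 CPM and Kif5b, a motor of cargo transport, from 238 ± 5.71 to 394 ± 5.52 CPM. TRIM genes had 16 rises and 17 falls in 38, with Trim65, a ubiquitin ligase gene, going from 16.7 ± 2.77 to 1.42 ± 0.495 CPM and Trim30b going from 1 read in control to 5.28, 5.34 and 6.23 CPM. Of 12 PARP genes 8 were higher and 3 lower, the latter including Parp1, of DNA repair, from 177 ± 5.7 to 74.9 ± 1.23 CPM. Among 54 genes whose symbol starts with Rab and a number, 21 (38.9%) were higher and 16 (29.6%) lower, close to the background. They include genes of proteins that bind Rab GTPases, one of which, Rab11fip1, rose from 29.3 ± 1.12 to 183 ± 10.5 CPM. Receptor genes of the Gpr series, not all of them orphan since the oxysterol receptor gene Gpr183 is included, had 7 rises (26.9%) and 12 falls (46.2%) in 26.

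Arhgap genes fell in 14 of 25 cases and rose in 6, with Arhgap27 going from 57.6 ± 1.12 to 9.48 ± 0.162 CPM and Arhgap23 from 11.1 ± 1.71 to 46.5 ± 0.582 CPM. Among histone genes, the linker histone gene H1f0 went from 108 ± 10.4 to 37.2 ± 1.71 CPM and the replacement variant gene H3f3b from 687 ± 19.3 to 1689 ± 12.1 CPM. Tmem genes had 43 rises and 69 falls in 167, Tmem86a going from 10.6 ± 1.85 to 0.793 ± 0.523 CPM and Tmem171 from 4.05 ± 0.443 to 59.8 ± 4.49 CPM. The tumour-associated surface gene Cd276 went from 111 ± 3.15 to 23.6 ± 2.33 CPM. All of these values are descriptions, and no family was tested against the others.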
